A study of Mus musculus with 16 samples.

Results

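A set of 44 genes, of the 34042 in a deposited mouse RNA sequencing count table, had lower mean counts at each of 2 steps, from naive embryonic stem (ES) cells to formative stem (FS) cells and from FS cells to epiblast stem cells (EpiSCs). The members were selected on these group means, so both steps are descriptions and carry no test. Levels are in CPM, a gene's counts per 1e+06 counts of its library. A member had an ES mean of at least 5 CPM that was at least 2 times the FS mean, and an FS mean of at least 1 CPM that was at least 2 times each of the EpiSC means.

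The table covers 16 bulk RNA sequencing libraries of mouse pluripotent cells in culture. ES cells of the line E14IV-C grew in 2iL, a medium with inhibitors of MEK and GSK3 and the cytokine LIF, and gave 4 libraries at passages 12, 13, 15 and 20. FS cells grew in A3XR, which holds a low dose of activin A, the tankyrase inhibitor XAV939 that lowers Wnt signalling, and an inverse agonist of the retinoic acid receptors. They gave 6 libraries, 3 of the line 5ar1 at passages 10, 12 and 14 and 3 of the line 5ar3 at passages 4, 5 and 12. EpiSCs of the line AF32 grew in AF, which is activin A with FGF2, and gave 3 libraries at passages 13, 14 and 15 (EpiSC_AF). EpiSCs of the line AFX6 grew in AFX, the same medium with XAV939, and gave 3 libraries at passages 5, 8 and 12 (EpiSC_AFX). ES, EpiSC_AF and EpiSC_AFX each came from a single line, so there the line and the medium cannot be told apart. Libraries of a line differ in passage, and the p-values below measure the spread between passages of a line.

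Naive ES cells resemble the epiblast of the embryo before implantation, EpiSCs resemble the epiblast close to gastrulation, and formative cells are placed between them. The naive state is known to rest on a network of transcription factors, among them Esrrb, Klf4, Tfcp2l1 and Nanog, which is taken down when cells leave 2iL. Leaving the naive state is also known to come with a broad gain of DNA methylation, under which many germline genes with CpG-rich promoters are silenced. In bulk samples fewer cells of a type and less RNA per cell cannot be told apart, so a low mean below can be either.

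Libraries held 22069338 to 33290250 counts. Mitochondrially encoded genes took 43.2% of the counts in the ES library of passage 12 and 11.9% to 29.4% in the other 15. The labelled states were checked against marker lists. Summed over 16 naive transcription factor genes, the level was 2341 to 4733 CPM in ES, 181 to 369 in FS, 222 to 399 in EpiSC_AFX and 339 to 434 in EpiSC_AF. Summed over 9 formative epiblast genes, it was 36.1 to 131 CPM in ES and at least 1123 CPM in every other library. Marker levels of other cell types also differed between the groups. The summed level of 10 primitive endoderm genes had a median of 10.8 CPM in ES, 579.6 in FS, 228 in EpiSC_AFX and 365 in EpiSC_AF. Most of the FS sum was Lrp2, at a mean of 639 CPM, and 7 of the 10 genes, among them Gata4, Gata6, Sox17 and Sox7, had an FS mean under 1 CPM. The summed level of 10 fibroblast genes had a median of 6.56 CPM in ES, 60.0 in FS, 32.5 in EpiSC_AFX and 95.6 in EpiSC_AF. Medians in the same order were 23.4, 288, 491 and 485 CPM for 8 neuroectoderm genes and 97.8, 169, 301 and 485 CPM for 10 trophoblast genes. Genes of the 2-cell-like state summed to at most 1.21 CPM in any library. The part of these cell types in the values of the members was not tested.

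The members were few among the genes with a lower mean in FS than in ES. Of the 10404 genes with an ES mean of at least 5 CPM, 1364 had an ES mean at least 2 times the FS mean, and 984 of these kept an FS mean of at least 1 CPM. A second 2-fold step to both EpiSC means left the 44 members, while 869 genes were lower only at the first step. A further 62 genes were lower only at the second step. The members' summed level was 1475 to 1959 CPM in ES, 328 to 505 in FS, 105 to 162 in EpiSC_AFX and 103 to 131 in EpiSC_AF. The FS mean was 4.83% to 49.5% of the ES mean, with a median of 21.4%. The ES mean was 2.02 to 20.7 times the FS mean (median 4.66). The FS mean was 2.00 to 54.1 times the higher EpiSC mean (median 2.60). In 32 members the first step was the larger one and in 12 the second.

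The order also held library by library in part of the set. In 39 members every ES library was above every FS library, against 14.1% of the 10404 genes, and in 19 every FS library was above every EpiSC library, against 2.79%. Both held in 15 members, against 0.384%. These contrasts chose the members, and nothing is read from the shares. The 15 ordered throughout were Angptl4, Cttnbp2, Dkk3, Dlgap3, Epha4, Fabp3, Fabp3-ps1, Gstm2-ps1, Kif5a, Klhl22, Lipo3, Mtus2, She, Slc38a4 and Zfp709. Both 2-fold steps were met by 29 members with 5ar1 alone as the FS group, by 32 with 5ar3 alone, and by 19 with each line alone. Without the ES library of passage 12 the rule gave 48 genes, which held all 44 members.

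**Figure D1:**
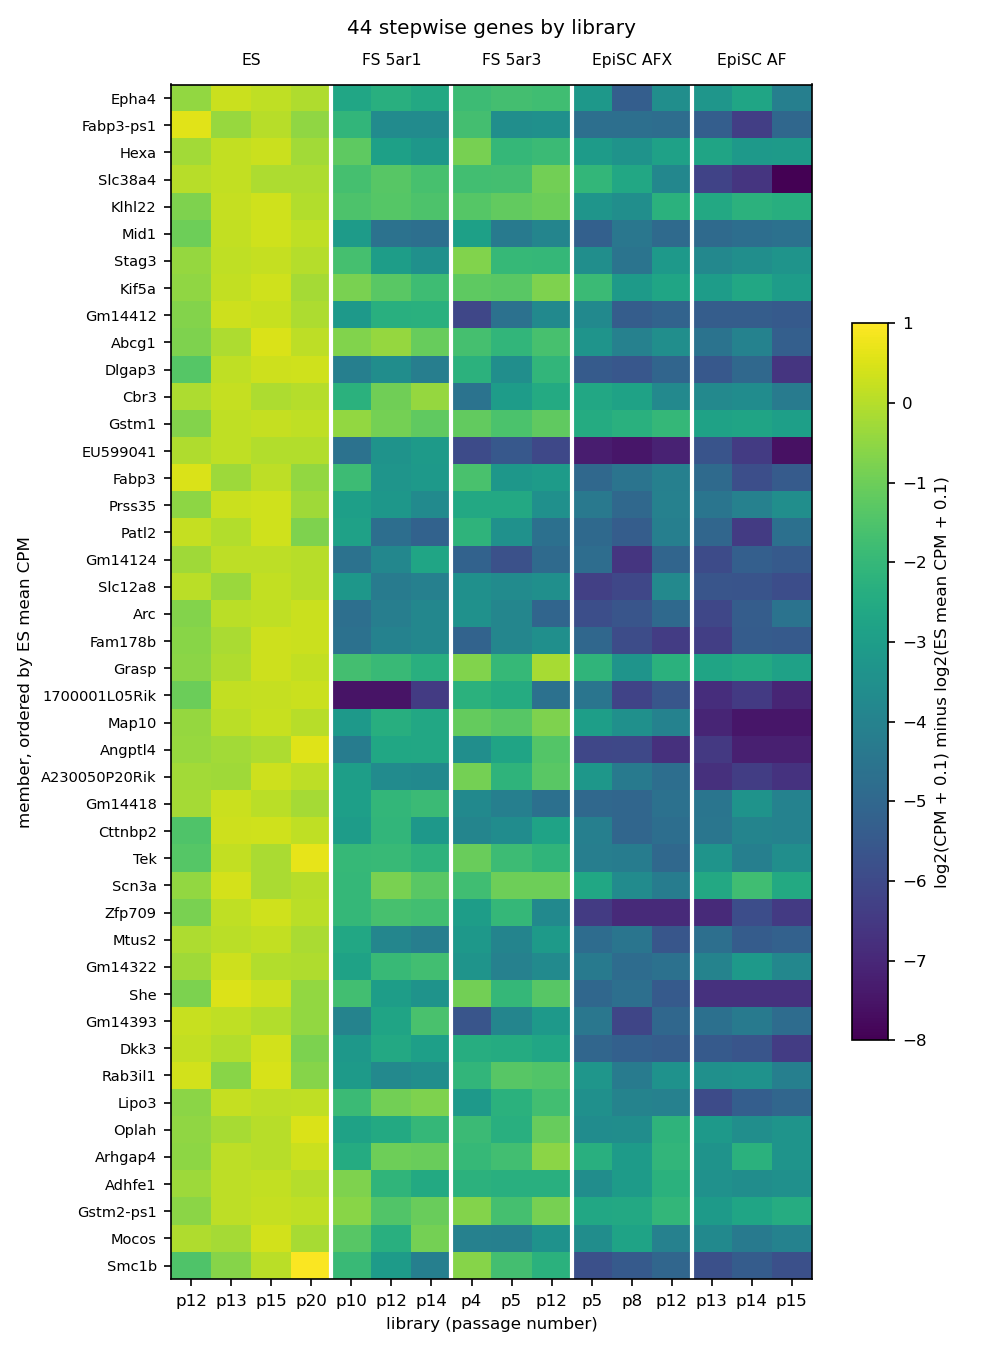
Heat map of the 44 members (rows, ordered by ES mean CPM) in the 16 libraries (columns, by group, line and passage). Colour is log2(CPM + 0.1) minus log2 of the ES mean plus 0.1, so that 0 is the ES mean. ES columns sit closest to 0, with the passage 12 library below -1 in 6 rows, and EpiSC columns are darkest in most rows. Single rows such as 1700001L05Rik and Cbr3 differ between the lines 5ar1 and 5ar3.

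Levels in ES cells differed widely among the members. The 10 highest ES means belonged to Epha4, Fabp3-ps1, Hexa, Slc38a4, Klhl22, Mid1, Stag3, Kif5a, Gm14412 and Abcg1, from 229 down to 42.8 CPM. Per kilobase of annotated exon, the ES level of members ranged from 0.840 CPM per kb for Arhgap4 to 547 for Fabp3-ps1, and the next highest was Hexa at 71.6. Of all members, 5 were at 100 CPM or more in ES and 10 were under 10 CPM.

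Of the transporter genes, Slc38a4 encodes a sodium-coupled neutral amino acid transporter and is known as an imprinted gene. It measured 136, 150, 124 and 125 CPM in the ES libraries, 40.8 to 71.5 CPM in FS with a median of 43.1, and 32.7, 22 and 9.38 CPM in EpiSC_AFX at passages 5, 8 and 12. In EpiSC_AF it measured 1.72, 1.28 and 0.331 CPM. Groups did not overlap at any step, and EpiSC_AF stood far below EpiSC_AFX. Slc12a8, of the cation-chloride cotransporter family, had by far the larger step first. It measured 17.9 to 26.3 CPM in ES, 1.10 to 2.35 CPM in FS with a median of 1.82, and 0.342 ± 0.0420 CPM in EpiSC_AF (SD, n = 3). In EpiSC_AFX it measured 1.60 CPM at passage 12 against 0.195 and 0.240 CPM at passages 5 and 8, so that 1 library lay within the FS range.

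Lipid handling genes made up a further group. Abcg1 encodes a cholesterol exporter, and its first step was among the smallest. It measured 25.6, 39.5, 59.5 and 46.4 CPM in ES, 10.1 to 32.2 CPM in FS with a median of 16.9, and at most 4.13 CPM in any EpiSC library. ES and FS libraries overlapped, and no EpiSC library reached the FS range. Angptl4, a secreted inhibitor of lipoprotein lipase, measured 11.1 to 21.6 CPM in ES, 0.683 to 5.44 CPM in FS with a median of 2.19, and 0.0355 to 0.120 CPM in EpiSC_AFX. In EpiSC_AF it was seen only in the passage 13 library, with 2 counts against 338 counts in the FS libraries, a depth-corrected ratio of 99.8 with an exact 95% interval of 27.4 to 828 that covers counting error only. Lipo3, a lipase family member, measured 5.36 to 9.21 CPM in ES, 0.806 to 4.71 CPM in FS with a median of 2.25, and 0.0312 to 0.623 CPM in EpiSCs. In both genes the libraries of the 3 states did not overlap.

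Fabp3, a fatty acid binding protein, and its processed pseudogene Fabp3-ps1 shared one profile. Fabp3 measured 45.7, 25.9, 34.5 and 23.7 CPM in ES, 3.20 to 10.8 CPM in FS with a median of 3.65, and 0.463 to 1.85 CPM in EpiSCs. Fabp3-ps1 measured 334, 166, 224 and 155 CPM in ES, 17.5 to 68.7 CPM in FS with a median of 19.3, and 2.60 to 8.32 CPM in EpiSCs. In ES both were highest at passage 12, and in each FS line both were highest at the earliest passage. The pair cannot be told apart with certainty, because 64.0% of the 50-base words in the pseudogene's transcript also occur in Fabp3.

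Genes of glutathione and other redox or cofactor metabolism were Gstm1, Cbr3, Oplah, Adhfe1 and Mocos. Gstm2-ps1 is a processed pseudogene, and 35.4% of its 50-base words also occur in Gstm1, so the 2 cannot be told apart with certainty. Gstm1 is a glutathione S-transferase whose ES library of passage 12 lay within the FS range. It measured 21.3, 36.8, 39.4 and 37.1 CPM in ES, 11.6 to 24.8 CPM in FS with a median of 14.7, and 4.38 to 8.24 CPM in EpiSCs. Cbr3, a carbonyl reductase, measured 36.4 to 45.4 CPM in ES, 1.57 to 29.5 CPM in FS with a median of 7.54, and 1.99 to 6.39 CPM in EpiSCs. The FS libraries of Cbr3 spread from below the EpiSC level to near the ES level. Oplah (5-oxoprolinase of the glutathione cycle), Adhfe1 (a mitochondrial hydroxyacid-oxoacid transhydrogenase) and Mocos (molybdenum cofactor sulfurase) had ES means of 6.20 to 6.94 CPM and FS means of 1.32 to 1.75 CPM. All 3 had FS and EpiSC libraries that overlapped. Hexa, a subunit of the lysosomal enzyme hexosaminidase A, measured 119 to 172 CPM in ES, 15.1 to 78.9 CPM in FS with a median of 36.9, and 13.6 to 21.2 CPM in EpiSCs. The 5ar1 libraries of Hexa at passages 12 and 14 lay within the EpiSC range.

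Receptors and signalling proteins formed the next group. Epha4 encodes an ephrin receptor tyrosine kinase and had the highest ES mean of the set. It measured 166, 279, 254 and 215 CPM in ES, 35.6 to 71.5 CPM in FS with a median of 54.9, 5.68 to 24.7 CPM in EpiSC_AFX and 13.1 to 35.3 CPM in EpiSC_AF. The lowest FS library was only just above the highest EpiSC library. Tek, the angiopoietin receptor, measured 4.97 to 20.4 CPM in ES, 2.78 to 6.09 CPM in FS with a median of 3.28, and 0.320 to 1.19 CPM in EpiSCs. Its ES and FS libraries overlapped through the ES library of passage 12.

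Dkk3, a secreted protein of the Dickkopf family, and She, an SH2 domain adaptor, had few or no counts in EpiSCs. Dkk3 measured 4.83 to 10.9 CPM in ES, 0.811 to 1.49 CPM in FS with a median of 1.27, and at most 0.156 CPM in any EpiSC library. She measured 6.05 to 15.1 CPM in ES, 0.928 to 5.52 CPM in FS with a median of 2.79, and 0.142 to 0.300 CPM in EpiSC_AFX. She had no count in any EpiSC_AF library. With 415 counts in FS and a floor of 3 counts per library in EpiSC_AF, FS was at least 27.9-fold higher.

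Genes of the cytoskeleton, of trafficking and of neuronal excitability are described next, with a few others. Klhl22, a substrate adaptor of CUL3 ubiquitin ligases, and Kif5a, a kinesin heavy chain, had moderate steps with no overlap between states. Klhl22 measured 73.0 to 153 CPM in ES, 41.7 to 59.0 CPM in FS with a median of 46.2, and 10.1 to 25.7 CPM in EpiSCs. Kif5a measured 40.0 to 71.8 CPM in ES, 16.1 to 33.1 CPM in FS with a median of 23.3, and 6.40 to 15.2 CPM in EpiSCs. Mid1, a microtubule-associated ubiquitin ligase, had a much larger first step, from 43.3 to 111 CPM in ES to 3.19 to 11.6 CPM in FS with a median of 5.00. Its EpiSC libraries, at 2.22 to 3.91 CPM, reached into the FS range.

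Map10 encodes a microtubule-associated protein of dividing cells. It measured 13, 18.3, 20.5 and 18 CPM in ES, 1.92, 3.34 and 2.82 CPM in 5ar1 at passages 10, 12 and 14, and 7.86, 6.88 and 10.4 CPM in 5ar3 at passages 4, 5 and 12. It measured 2.14, 1.47 and 0.995 CPM in EpiSC_AFX at passages 5, 8 and 12. EpiSC_AF held a single Map10 count over its 3 libraries. The 5ar3 libraries lay above those of 5ar1, while 5ar1 and EpiSC_AFX overlapped.

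The postsynaptic scaffold gene Dlgap3 measured 16.3 to 53.5 CPM in ES, 2.30 to 9.92 CPM in FS with a median of 3.47, and at most 1.25 CPM in EpiSCs. Arc, an immediate early gene of neurons, measured 13.5 to 25.7 CPM in ES and 0.544 to 1.89 CPM in FS, with a median of 1.24. The EpiSC level of Arc was 0.218 to 0.809 CPM, within reach of the FS libraries. The microtubule scaffold gene Mtus2, the cortactin binding protein gene Cttnbp2 and Fam178b had ES means of 11.6 to 20.5 CPM and FS means of 1.04 to 1.68 CPM. Scn3a (a voltage-gated sodium channel), Grasp (a scaffold of membrane receptors), Arhgap4 (a GTPase activating protein) and Rab3il1 (an exchange factor for Rab proteins) had ES means of 6.81 to 19 CPM and FS means of 1.65 to 7.92 CPM. In these 4 genes FS and EpiSC libraries overlapped.

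**Figure D2:**
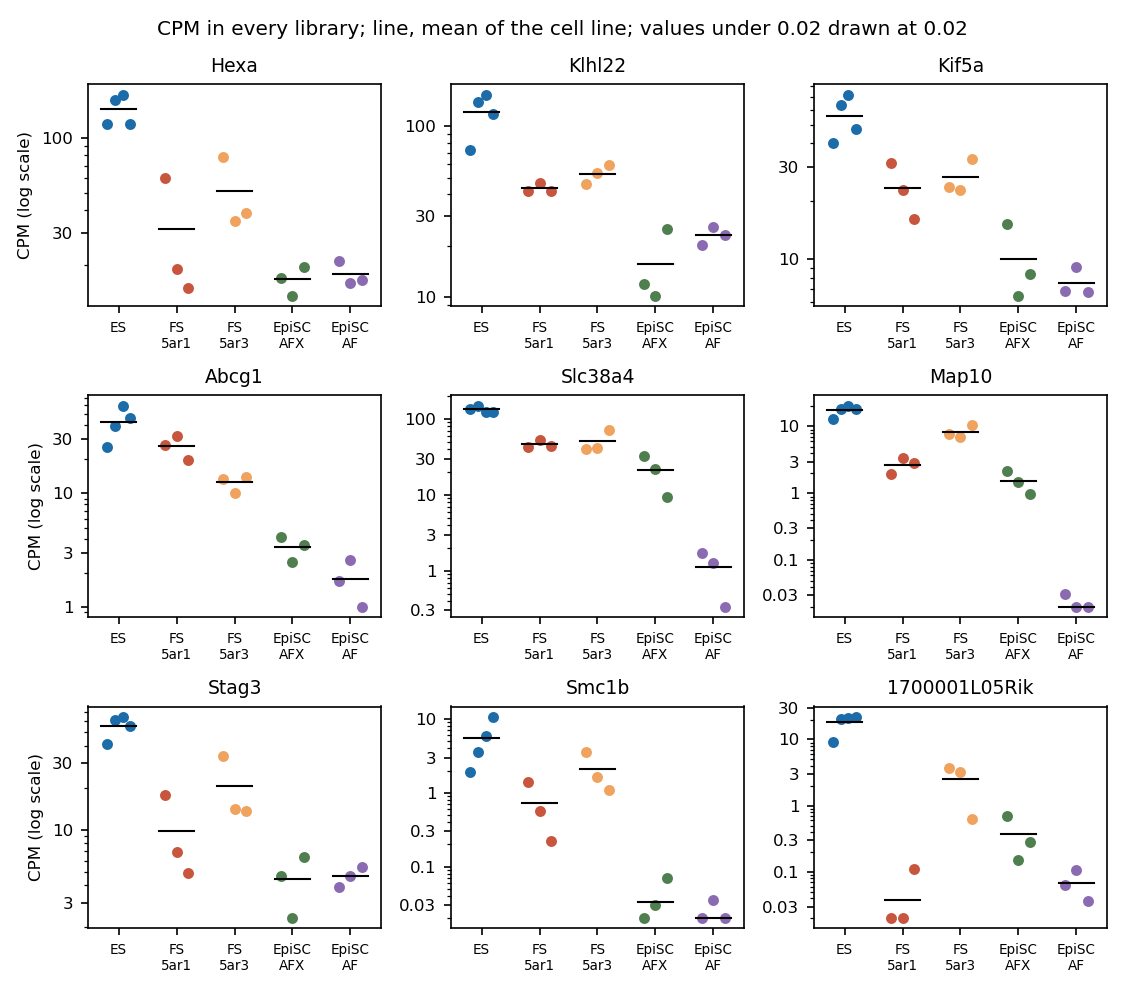
CPM in every library (points, log axis) of 9 members, by line, with the line mean as a bar and values under 0.02 CPM drawn at 0.02. Kif5a and Klhl22 step down with no overlap between states, Slc38a4 and Map10 are far lower in EpiSC AF than in EpiSC AFX, and 1700001L05Rik is at most 0.111 CPM in line 5ar1 and at least 0.634 CPM in 5ar3.

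Among the 19 gene lists looked up, 1 held members, the germline list, and these members were 2 subunits of the meiotic cohesin complex, Stag3 and Smc1b. Of 41 methylation-sensitive germline genes in the table, 2 were members, 13 were under 1 CPM in FS and 23 were under 5 CPM in ES. Stag3 measured 41.1, 61.3, 65.1 and 55.6 CPM in ES, 17.7, 6.93 and 4.90 CPM in 5ar1 at passages 10, 12 and 14, and 33.8, 14.1 and 13.7 CPM in 5ar3 at passages 4, 5 and 12. In EpiSCs it measured 2.31 to 6.32 CPM, and the oldest 5ar1 library lay within that range. Smc1b measured 1.94, 3.54, 5.89 and 10.8 CPM in ES at passages 12, 13, 15 and 20. In FS it measured 1.41, 0.569 and 0.223 CPM in 5ar1 and 3.55, 1.65 and 1.09 CPM in 5ar3. Only 3 counts in EpiSC_AFX and 1 in EpiSC_AF were left of it, against 204 in FS. The depth-corrected ratio of FS to EpiSC_AFX was 40.1, with an exact 95% interval of 13.5 to 196 that covers counting error only. Dazl, an RNA-binding protein gene of germ cells on the same list, had an ES mean of 48.7 CPM and an FS mean of 0.0567 CPM. Patl2, known as a translational regulator of oocytes, measured 17.8 to 38.1 CPM in ES, 0.742 to 6.77 CPM in FS with a median of 1.88, and 0.249 to 1.63 CPM in EpiSCs.

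Promoter sequences were read from RefSeq (GRCm38.p6), as 250 bases before to 50 bases after the annotated start. They are shown for the cohesin pair, for the long noncoding RNA gene 1700001L05Rik and for Map10, which had the smallest p-values of the members in the tests between lines below. All 4 are rich in CpG, with 30, 29, 30 and 26 CpG in 300 bases. They do not stand for the set in CpG or motifs, as member promoters ranged from 1 CpG (Gm14393) to 39 (She). The windows are chr5:138280259-138280558 on the plus strand (Stag3), chr15:85131908-85132207 on the minus strand (Smc1b), chr15:83367248-83367547 on the minus strand (1700001L05Rik) and chr8:125669568-125669867 on the plus strand (Map10). Capitals mark the E-box CACGTG and the E2F-type motif GCGGGAA, each searched on both strands. The E-box is in 7.24% of all 27025 promoters in the table, and in 11.4% of the 7729 from genes with an ES mean of at least 5 CPM. The E2F-type motif is in 4.66% and 9.30% of these.
Stag3: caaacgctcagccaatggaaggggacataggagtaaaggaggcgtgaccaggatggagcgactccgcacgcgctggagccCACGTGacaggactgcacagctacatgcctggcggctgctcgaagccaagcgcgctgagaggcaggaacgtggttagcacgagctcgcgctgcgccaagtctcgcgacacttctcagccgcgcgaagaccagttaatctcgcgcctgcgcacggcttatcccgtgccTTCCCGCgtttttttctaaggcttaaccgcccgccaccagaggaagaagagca
Smc1b: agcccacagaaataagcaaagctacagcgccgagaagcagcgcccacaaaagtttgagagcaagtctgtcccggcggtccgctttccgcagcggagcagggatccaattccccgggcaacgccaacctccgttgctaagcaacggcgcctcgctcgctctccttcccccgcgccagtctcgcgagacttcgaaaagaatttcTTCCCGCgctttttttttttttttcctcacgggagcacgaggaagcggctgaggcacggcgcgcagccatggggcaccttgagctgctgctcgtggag
1700001L05Rik: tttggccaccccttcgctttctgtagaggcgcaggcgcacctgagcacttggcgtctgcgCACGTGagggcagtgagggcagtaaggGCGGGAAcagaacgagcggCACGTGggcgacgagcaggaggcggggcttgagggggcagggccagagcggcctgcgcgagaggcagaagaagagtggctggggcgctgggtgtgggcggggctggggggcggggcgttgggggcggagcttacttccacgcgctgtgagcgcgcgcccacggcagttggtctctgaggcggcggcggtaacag
Map10: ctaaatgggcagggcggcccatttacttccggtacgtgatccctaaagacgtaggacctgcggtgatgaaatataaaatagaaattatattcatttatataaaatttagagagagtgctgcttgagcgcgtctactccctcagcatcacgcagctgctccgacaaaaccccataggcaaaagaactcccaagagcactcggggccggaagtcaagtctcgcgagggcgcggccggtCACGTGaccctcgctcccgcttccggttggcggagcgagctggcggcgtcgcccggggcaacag
Stag3 held both motifs, with the E2F-type motif on the opposite strand in the stretch TTCCCGC, which Smc1b held as well. 1700001L05Rik held 2 E-boxes and the E2F-type motif, and Map10 held an E-box. A match describes the letters and is no evidence of binding. Of the 44 members 30 (68.2%) had an entry in the promoter table, and 74.3% of the genes with an ES mean of at least 5 CPM did. With so many entries missing a comparison of CpG content or motifs over the whole set is void, and none is given.

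Zinc finger genes were the members that lay closest together. Of the 44 members, 7 were on chromosome 2 (15.9%), against 8.30% of the 10404 genes with an ES mean of at least 5 CPM. A further 6 were on chromosome 15 (13.6%, against 3.69%), which were Slc38a4, Smc1b, 1700001L05Rik, Arc, Grasp and Oplah. Of the 7 on chromosome 2, the 4 genes Gm14393, Gm14412, Gm14418 and Gm14322 lay in a window of 2.71 Mb at the end of the chromosome (175061549 to 177770472, GRCm38), in a cluster of KRAB zinc finger genes, a family known for silencing transposons. Gm14124 lay at 150257517 to 150270300 on the same chromosome. Gm14412 measured 31.1, 62.3, 59.4 and 46.7 CPM in ES, 5.63, 9.85 and 10.1 CPM in 5ar1, and 0.645, 1.92 and 3.62 CPM in 5ar3 at passages 4, 5 and 12. Its EpiSC libraries, at 1.03 to 3.66 CPM, overlapped those of 5ar3 and not those of 5ar1. Gm14124 measured 22.2 to 29.1 CPM in ES, 1.02, 1.78 and 4.04 CPM in 5ar1, 0.402 to 0.816 CPM in 5ar3 and 0.180 to 0.896 CPM in EpiSCs. Gm14418, Gm14322 and Gm14393 had ES means of 8.84 to 14 CPM and FS means of 1.01 to 1.83 CPM.

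No promoter entry was found for Gm14412 and Gm14418. The promoters of Gm14124, Gm14322 and Gm14393 differ from those above in being poor in CpG, which is why they are shown with each CpG in capitals. The windows are chr2:150257267-150257566 on the plus strand (Gm14124), chr2:177759038-177759337 on the plus strand (Gm14322) and chr2:175067720-175068019 on the minus strand (Gm14393).
Gm14124: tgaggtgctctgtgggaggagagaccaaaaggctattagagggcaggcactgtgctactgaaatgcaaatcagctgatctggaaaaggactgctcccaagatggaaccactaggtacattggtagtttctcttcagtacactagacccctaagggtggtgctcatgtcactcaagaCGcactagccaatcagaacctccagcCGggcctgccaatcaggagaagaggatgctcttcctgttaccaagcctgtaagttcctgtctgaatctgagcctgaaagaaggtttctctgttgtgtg
Gm14322: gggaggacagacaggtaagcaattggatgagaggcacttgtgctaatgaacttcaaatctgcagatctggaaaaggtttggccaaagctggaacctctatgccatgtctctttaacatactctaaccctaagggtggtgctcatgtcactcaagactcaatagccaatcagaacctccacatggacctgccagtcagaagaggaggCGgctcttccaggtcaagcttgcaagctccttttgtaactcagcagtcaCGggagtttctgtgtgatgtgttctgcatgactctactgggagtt
Gm14393: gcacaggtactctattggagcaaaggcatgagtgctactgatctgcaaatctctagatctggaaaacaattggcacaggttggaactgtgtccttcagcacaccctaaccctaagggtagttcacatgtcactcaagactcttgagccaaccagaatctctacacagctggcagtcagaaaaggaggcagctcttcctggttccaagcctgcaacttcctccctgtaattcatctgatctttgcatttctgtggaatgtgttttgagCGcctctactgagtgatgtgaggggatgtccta
They hold 2, 2 and 1 CpG in 300 bases and are alike in sequence, with 67.3% identity between Gm14124 and Gm14322, 60.7% between Gm14124 and Gm14393, and 69.1% between Gm14322 and Gm14393 in global alignments. Neither the E-box nor the E2F-type motif was found in these windows. Gm14124 holds the octamer ATGCAAAT, which is in 1.75% of all promoters and in 1.41% of those from genes with an ES mean of at least 5 CPM. Counts of single genes in the cluster are uncertain, since 86.3% of the 50-base words of Gm14322 also occur in transcripts of other genes, mainly Gm14418, and 58.3%, 55.7%, 27.8% and 26.0% of those of Gm14393, Gm14418, Gm14412 and Gm14124. Zfp709 on chromosome 8, another zinc finger gene, had the largest second step of the set. It measured 6.83 to 15.5 CPM in ES and 0.816 to 3.88 CPM in FS, with a median of 2.93. EpiSC_AFX held 1 count of it and EpiSC_AF 4, against 393 counts in FS. The depth-corrected ratio of FS to EpiSC_AF was 58.0, with an exact 95% interval of 22.5 to 214 that covers counting error only.

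The long noncoding RNA genes among the members were EU599041 and 1700001L05Rik. EU599041 measured 31.8, 36.7, 32.8 and 33.1 CPM in ES, 1.28, 3.16 and 3.82 CPM in 5ar1, 0.443, 0.626 and 0.408 CPM in 5ar3 and 0.0736 to 0.562 CPM in EpiSCs. Its first step, 20.7-fold, was the largest of the set. 1700001L05Rik measured 9.03, 20.6, 21.3 and 22.2 CPM in ES. In FS it had no count in 5ar1 at passages 10 and 12 and measured 0.111 CPM there at passage 14, against 3.75, 3.22 and 0.634 CPM in 5ar3 at passages 4, 5 and 12. EpiSC_AFX libraries lay at 0.150 to 0.701 CPM and EpiSC_AF libraries at 0.0368 to 0.107 CPM, so its place between naive and primed rests on the line 5ar3. The protein-coding genes Prss35 (a protease-like protein) and A230050P20Rik had ES means of 31.1 and 14.1 CPM and FS means of 3.76 and 3.35 CPM.

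**Figure D3:**
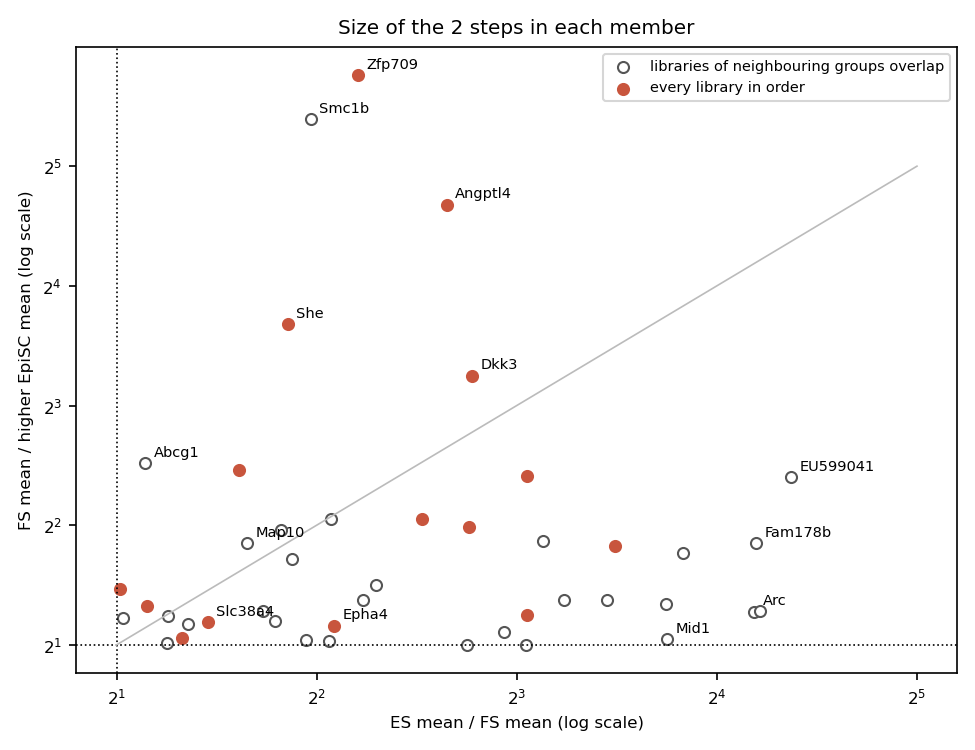
Each member's ratio of ES mean to FS mean (horizontal, log scale) against its ratio of FS mean to the higher EpiSC mean (vertical, log scale). Dotted lines mark the 2-fold thresholds that chose the members, the grey line marks equal steps, and red points are the 15 members whose libraries were in order throughout. Zfp709, Smc1b, Angptl4, She and Abcg1 lie farthest above the line of equal steps, and Gm14124, Arc, Mid1, Slc12a8 and Fam178b farthest below it.

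The FS lines 5ar1 and 5ar3 were compared by a test across all genes. This comparison is not independent of the rule, since a mean over both lines can pass on the level of 1 line. A robust quasi-likelihood model in edgeR was fitted to all 18555 genes tested, with one mean per line over the 16 libraries, and a call needed a p under 0.05 after Benjamini-Hochberg adjustment. Of the 44 members, 14 were called (31.8%), against 3.88% of all genes tested. 8 were higher in 5ar1, against 1.86% of all genes, and 6 were lower in 5ar1, against 2.02%. The median log2 fold change was -0.29 over the members and -0.01 over all genes tested. Of the 14, 7 met both 2-fold steps with 5ar1 alone only, 5 with 5ar3 alone only, Dlgap3 with each line and Grasp with neither. Over all 44 members 23 met the steps with exactly 1 line, so nothing is read from the members' share against that of all genes. Both lines grew in the same medium, and at the passage they shared (12) each was represented by 1 library.

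The member with the largest difference was 1700001L05Rik, whose 5ar1 libraries all lay below the 5ar3 libraries. Its log2 fold change was -5.98 ± 0.86 (SE, adjusted p = 7.72e-04, edgeR), and it was called under each of the 24 alternatives run. With 0, 0 and 3 counts in 5ar1 at passages 10, 12 and 14, depth limits the size of this change. At passage 12, which the lines share, 5ar1 held 0 counts and 5ar3 held 14. The microtubule gene Map10 was lower in 5ar1 by a log2 fold change of -1.68 ± 0.28 (adjusted p = 0.00248, edgeR) and A230050P20Rik by -2.18 ± 0.37 (adjusted p = 0.00272, edgeR), each with no overlap between the lines. Also lower were Rab3il1, Dlgap3 and Grasp, at log2 fold changes of -2.10, -1.50 and -1.19. The libraries of Grasp overlapped between the lines, as 5ar3 at passage 5 (4.78 CPM) lay below 5ar1 at passages 10 and 12.

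Higher in 5ar1 were 4 of the zinc finger genes, 3 genes of metabolism and 1 noncoding RNA gene. Mocos had the largest difference, at 2.29 ± 1.07 CPM in 5ar1 and 0.350 ± 0.129 CPM in 5ar3 (SD, n = 3 each), a log2 fold change of 2.65 ± 0.49 (SE, adjusted p = 0.00514, edgeR). EU599041 followed with 2.42 ± 0.46 (adjusted p = 0.00643, edgeR), Cbr3 with 2.09 ± 0.47 (adjusted p = 0.0188, edgeR) and Gm14412 with 2.02 ± 0.44 (adjusted p = 0.0149, edgeR). Gm14418, Gm14124 and Gm14322 had log2 fold changes of 1.97, 1.84 and 1.64, and the cholesterol exporter gene Abcg1 of 1.01. In all 8 the libraries of the lines did not overlap, which also held for Epha4 and Zfp709, which were not called. The share of all genes without overlap is not given here, so nothing is read from this.

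Leaving out 1 library ended 8 of the 14 calls. The calls of 1700001L05Rik, Map10, A230050P20Rik, Mocos, Gm14418 and EU599041 held without any single library. The calls over all genes moved as well. Members called numbered 7 without 5ar1 passage 12 (1.89% of all genes called), 7 without 5ar1 passage 14 (1.496%), 9 without 5ar3 passage 4 (2.06%), 8 without 5ar3 passage 5 (1.97%) and 18 without 5ar1 passage 10 (8.07%). A fit to the 6 FS libraries alone called 5 members and 2.25% of all genes, and passage as a covariate 8 and 2.32%. A test against a log2 fold change of 1 called 1700001L05Rik alone of the members, and 0.690% of all genes. On total counts alone, with no TMM scaling, 10 members were called, and of all genes 278 were higher and 222 lower in 5ar1, against 345 and 375.

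**Figure D4:**
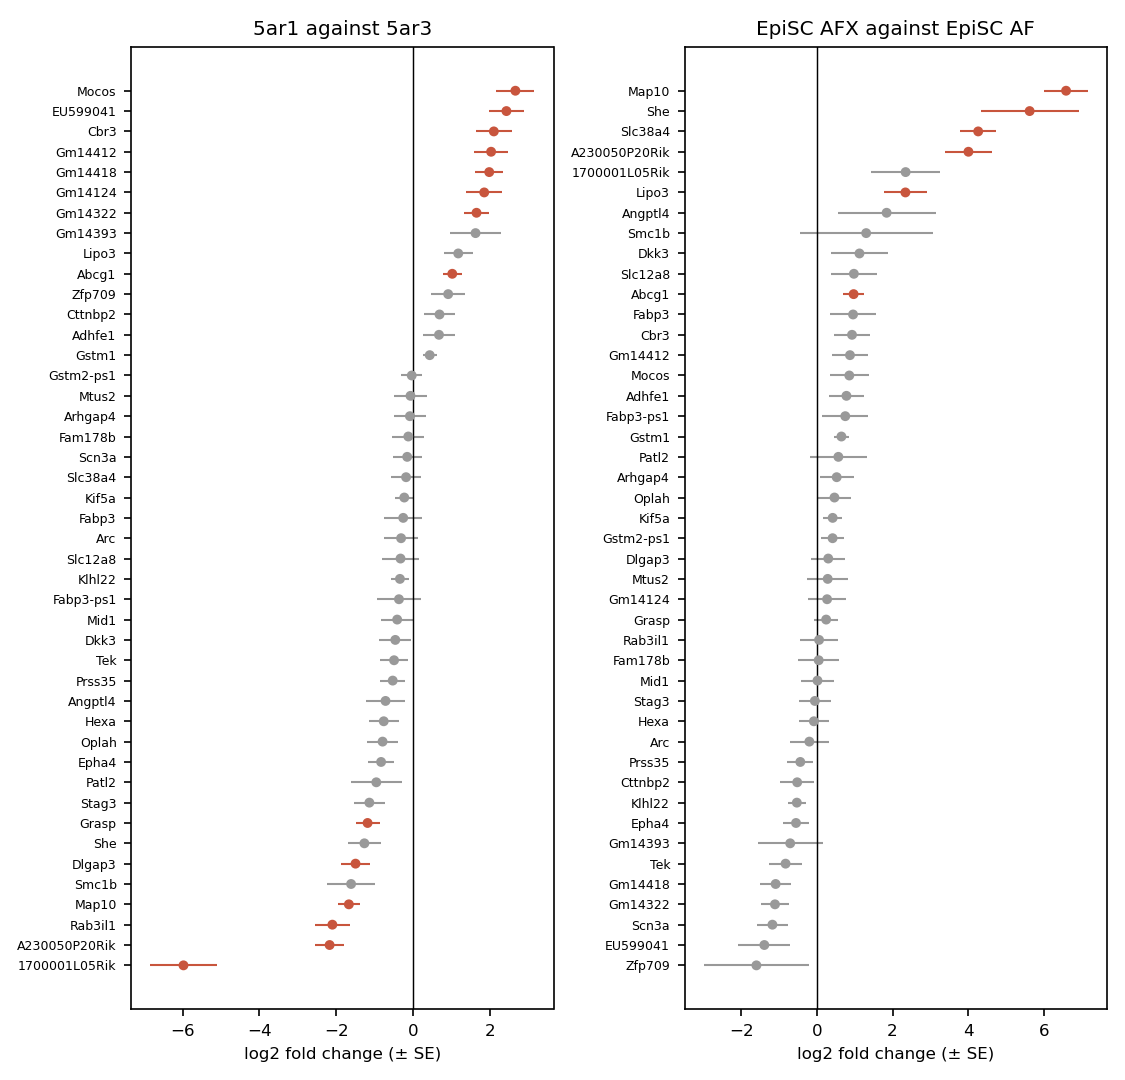
Log2 fold change of each member (points, with standard error bars) between the FS lines 5ar1 and 5ar3 (left) and between EpiSC AFX and EpiSC AF (right), from the edgeR fit. Red marks members called at an adjusted p under 0.05, which are 14 on the left, in both directions, and 6 on the right, all of them higher in EpiSC AFX.

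The zinc finger window on chromosome 2 was looked at as a whole after the values of the members were seen. Of its 72 annotated genes in the table, 33 had an ES mean of at least 5 CPM, and 16 of these had an ES mean at least 2 times the FS mean. Between the FS lines, 31 of the 33 were higher in 5ar1, against 48.3% of all genes tested, and the median log2 fold change was 0.56. By edgeR, 8 of the 33 were called higher in 5ar1 and none lower, against 1.86% and 2.02% of all genes tested. The 15 with an unadjusted p under 0.05 were all higher, against 8.33% of all genes that were higher at that p. Members set the ends of the window, and its 4 members met both 2-fold steps with 5ar1 alone and not with 5ar3 alone. Gm14412, Gm14418 and Gm14322 of these are among the 8 called. Nothing is read from the window's shares between the FS lines. Between the EpiSC lines the direction in the window was the other way for most genes, with 26 of 33 lower in EpiSC_AFX, against 49.6% of all genes. By edgeR 3 were called lower, against 4.38% of all genes, and none higher, against 2.24%. The 12 of the window with an unadjusted p under 0.05 were all lower, against 11.9% of all genes that were lower at that p. These genes share sequence, and reads of one can be counted for another, so they are not separate measurements. Gm14401, a gene of the window that was no member because its FS mean was 0.724 CPM, measured 36.2 CPM in ES, 1.39 CPM in 5ar1 and 0.0583 CPM in 5ar3, a log2 fold change of 4.43 ± 0.52 between the lines (SE, adjusted p = 1.16e-04, edgeR).

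**Figure D5:**
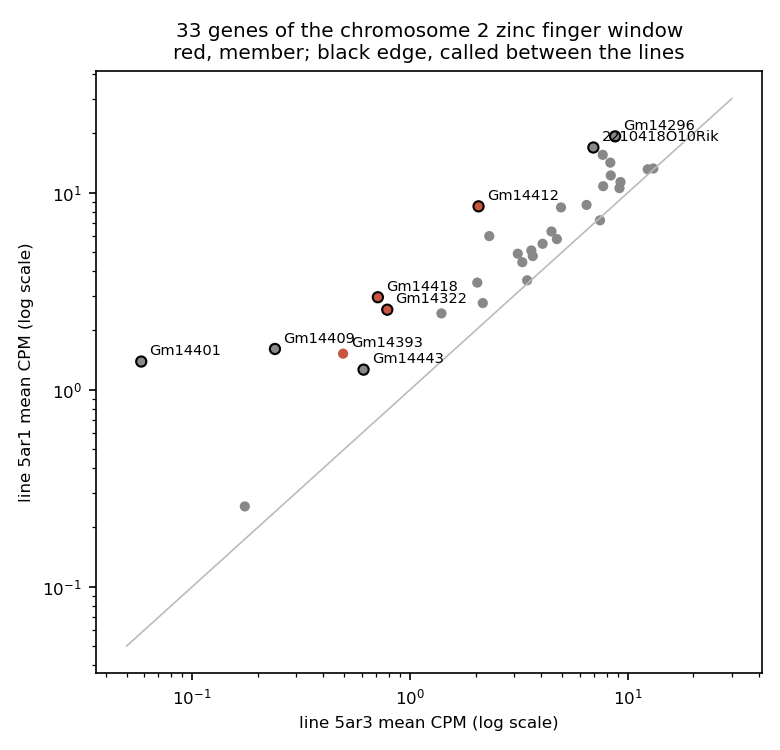
Mean CPM in the FS line 5ar1 (vertical, log scale) against 5ar3 (horizontal, log scale) for the 33 genes of the chromosome 2 window with an ES mean of at least 5 CPM. Red points are the 4 members, black edges mark the 8 genes called between the lines, and the grey line marks equal levels. Nearly all points (31 of 33 by the fitted change) lie above the line.

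EpiSCs with and without the Wnt inhibitor were compared in the same fit. The rule set each against FS and not against each other. It did use both EpiSC means, as each had to stay 2-fold under FS, so the comparison is not independent of the rule. Of the 44 members, 6 were called (13.6%), against 6.61% of all genes tested. A fit to the 6 EpiSC libraries alone tested 35 members and called 4 of them (11.4%), against 13.6% of all genes. In the main fit all 6 called were higher in EpiSC_AFX, against 2.24% of all genes, and none was lower, against 4.38%. With no adjustment, 8 members were higher in EpiSC_AFX at a p under 0.05 in edgeR, against 8.04% of all genes, and 4 lower, against 11.9%. The DESeq2 Wald test called 8 members higher in EpiSC_AFX, against 3.80% of all genes, and 1 lower, against 6.53%. The median log2 fold change was 0.42 over the members and 0.00 over all genes tested. Nothing is read from the members' shares against those of all genes. The line and the medium cannot be told apart here, and EpiSC_AFX was sampled at earlier passages (5, 8 and 12) than EpiSC_AF (13, 14 and 15). Xist, the noncoding RNA of X inactivation, also separated the lines, at 218 to 586 CPM in EpiSC_AFX and at most 0.570 CPM in the other 13 libraries. The part of this in the differences was not tested. Mid1 and Arhgap4 are the 2 members on the X chromosome, and neither was called.

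Map10, Slc38a4 and A230050P20Rik were called under each of the 25 alternatives run. For Map10, EpiSC_AFX held 132 counts and EpiSC_AF 1 (adjusted p = 3.32e-06, edgeR). The depth-corrected ratio was 132, with an exact 95% interval of 23.3 to 5262 that covers counting error only. The amino acid transporter gene Slc38a4 measured 21.3 ± 11.7 CPM in EpiSC_AFX and 1.11 ± 0.709 CPM in EpiSC_AF (SD, n = 3 each), a log2 fold change of 4.26 ± 0.48 (SE, adjusted p = 3.77e-05, edgeR). A230050P20Rik held 68 counts in EpiSC_AFX and 4 in EpiSC_AF (adjusted p = 6.97e-04, edgeR). None of the 3 had libraries that overlapped between the EpiSC lines. The same held for members that were not called, such as Gstm1, Scn3a and 1700001L05Rik, so it does not set the 3 apart.

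She, Lipo3 and Abcg1 were called with less margin. She had 20 counts in EpiSC_AFX and none in EpiSC_AF, which makes it at least 2.17-fold higher when 3 counts per library are taken as the floor (adjusted p = 0.0164, edgeR). Lipo3 had a log2 fold change of 2.34 ± 0.56 (SE, adjusted p = 0.0170, edgeR) and Abcg1 of 0.97 ± 0.28 (adjusted p = 0.0466, edgeR). The libraries of Abcg1 overlapped, since EpiSC_AF at passage 14 (2.57 CPM) was above EpiSC_AFX at passage 8 (2.49 CPM). Members called numbered 3 without EpiSC_AF passage 13 (764 of all 19102 genes called), 3 without EpiSC_AFX passage 8 (3.10%), and 3 in a test against a log2 fold change of 1 (1.06%). The summed level of 10 primitive streak genes was 26.1 to 96.4 CPM in EpiSC_AFX and 231 to 614 CPM in EpiSC_AF, and its part in these differences was not tested.

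Passage number was tested as one slope common to all lines, which the rule did not use. No member was called, and 1 of the 18555 genes was (0.00539%). The DESeq2 Wald test called no member, and 0.113% of all genes. With no adjustment 8 members had a p under 0.05 in edgeR, against 8.87% of all genes. The largest slopes among these 8 were those of Patl2, at a log2 change of -0.18 ± 0.07 per passage (SE, adjusted p = 0.559, edgeR), and Fabp3-ps1, at -0.15 ± 0.06 (adjusted p = 0.559, edgeR).

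The earliest library of each FS line stood out in a few members, which was noticed after the values were seen. In 13 of 44 members (29.5%) the earliest passage was the highest library of its line in both 5ar1 and 5ar3, against 24.2% of all genes tested. In 7 of them (15.9%) it was also more than 2 times each other library of its line, against 1.39% of all genes tested. The FS mean that chose the members holds these libraries, and 4 of the 7, Hexa, Mid1, Patl2 and Smc1b, did not meet the rule without 5ar3 at passage 4, so nothing is read from the shares. The 7 were Fabp3, Fabp3-ps1, Hexa, Mid1, Patl2, Smc1b and Stag3. Hexa measured 60.3 CPM in 5ar1 at passage 10 and 78.9 CPM in 5ar3 at passage 4, against 15.1 to 38.7 CPM in the other 4 FS libraries. The earliest passage was 10 in 5ar1 and 4 in 5ar3. No test of these counts was made.

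The genes that define naive identity were not members. None of the 16 naive transcription factor genes met the rule, and 15 of them had an ES mean at least 2 times the FS mean. Of these 15, 8 were under 1 CPM in FS, which were Klf2, Tbx3, Nr0b1, Nr5a2, Prdm14, Zfp42, Gbx2 and Sp5. The other 7, Esrrb, Klf4, Klf5, Tfcp2l1, Stat3, Nanog and Zfp57, had an FS mean under 2 times both EpiSC means. Esrrb measured 554 CPM in ES, 1.24 in FS, 0.891 in EpiSC_AFX and 0.674 in EpiSC_AF. Nanog measured 698 CPM in ES, 140.0 in FS, 182 in EpiSC_AFX and 223 in EpiSC_AF, so that FS was the lowest. Mycn, the remaining gene, measured 43.0 CPM in ES and 71.9 CPM in FS. Nr0b1 missed the rule only through its FS mean of 0.940 CPM, with 43.8 CPM in ES, 0.119 in EpiSC_AFX and 0.0119 in EpiSC_AF. A second list of 26 naive-associated signalling, surface and chromatin genes held no member, with 13 of them under 1 CPM in FS. The other 16 lists, of core pluripotency, LIF and STAT3, Nodal, germ cell, lineage marker, imprinted, epithelial, stress and metabolic genes, held no member either. Slc38a4 was not on the imprinted list, nor Arc on the immediate early list.

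Several genes lay close to the thresholds. Gm14322 was just inside, with an FS mean 2.0005 times its EpiSC_AF mean, and Prss35 (2.002) and Scn3a (2.03) were next, while Snap91 (1.99), Rasa4 (1.97) and Gm12892 (1.82) were just outside. Gstm2-ps1 (2.02), Gstm1 (2.05) and Abcg1 (2.21) had the smallest ratios of ES to FS means, and Isoc2a (1.999), Klf15 (1.98) and Gm9517 (1.85) missed that threshold. At the FS minimum of 1 CPM, Gm14393 (1.01), Mtus2 (1.04) and Fam178b (1.12) were inside, and Lrrc15 (0.981), Ankrd45 (0.952) and Nr0b1 were outside. Oplah (2.05), Adhfe1 (2.06) and Mid1 (2.16) had the smallest ratios of FS to EpiSC_AFX means, and Kank4 (1.87), Zfp982 (1.86) and Gm14139 (1.78) missed it. At the ES minimum, Smc1b (5.54 CPM), Mocos (6.20) and Gstm2-ps1 (6.61) were inside, and Npl (4.24), Mir124a-1hg (3.99) and Prdm16 (3.84) were outside.

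Some member counts rest on shared or overlapping sequence. In 12 members more than 10% of the 50-base words of the annotated transcripts also occur in another gene, and in 21 none does. Besides the zinc finger genes and the Fabp3 pair, these are Gstm2-ps1 (46.9%), Lipo3 (24.2%), Gstm1 (18.9%), EU599041 (16.7%) and Mid1 (15%). In 7 members more than 5% of exonic bases lie in exons of a gene on the opposite strand, which were Arhgap4 (29.0%, Avpr2), Fabp3 (19.6%), Mid1 (17.9%), Hexa (12.8%, Tmem202), Oplah (11.7%), A230050P20Rik (7.76%, Angptl6) and Cttnbp2 (6.20%). The strand setting of the counting is not given in the sources used here, so reads of these genes and their partners cannot be told apart with certainty.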

How the data were processed

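The authors deposited one table of raw read counts per gene, as whole numbers with gene symbols and Ensembl identifiers. Per the submitters' processing notes, Trim Galore, TopHat2 2.1.0 and featureCounts 1.5.0 were named, with the build mm10 (GRCm38). Counting strand is not given in the sources used here. 6 columns that matched no sample were not used. Groups follow the labelled culture condition.

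CPM for the rule used column totals. The tests used edgeR 4.0.16 (R 4.3.3) with filterByExpr by line, TMM scaling and a robust quasi-likelihood fit with one mean per line for 5 lines. Adjustment was over all genes tested. The procedure was run on simulated counts with a single dispersion shared by all genes. That is simpler than the spread between the real libraries, so it does not give the error rate here. Ratios of low counts have exact binomial 95% intervals, which leave out the spread between libraries. At 22069338 to 33290250 counts per library, 3 counts were taken as the floor. No libraries of a line agreed within sampling noise, with a chi-square per degree of freedom of at least 9.13. Genes were placed with GENCODE M21. The members and gene lists were chosen with earlier results of these data known. Members named were the 10 highest in ES, the 5 largest calls each way per test, list genes, those nearest each threshold and those with the most uneven steps. Further members were named by role.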

Additional observations from a re-analysis of the deposited data

Results flagged for a closer look

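In 7 of 88 sets of values (44 members in ES and in FS, 7.95%), 1 library stood apart from the rest of its group by Dixon's ratio, where chance gives about 1 in 20. The ES library of passage 12, in which mitochondrially encoded genes took 43.2% of the counts, was the low one in 4 of these. It measured 9.03 CPM for 1700001L05Rik against 20.6 to 22.2 in the other ES libraries, and 21.3 CPM for Gstm1 against 36.8 to 39.4. It measured 4.49 CPM for Gstm2-ps1 against 7.09 to 7.57, and 5.36 CPM for Lipo3 against 8.62 to 9.21. In FS, 5ar1 at passage 10 was high for Adhfe1, at 4.01 CPM against 1.08 to 1.49. 5ar3 at passage 12 was high for Angptl4, at 5.44 CPM against 0.683 to 2.30. 5ar3 at passage 4 was high for Tek, at 6.09 CPM against 2.78 to 3.58.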

How the results depend on the processing

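The number of genes meeting the rule was 104 with thresholds of 1.5-fold, 18 with 3-fold and 109 with no minimum in FS. With TMM-scaled CPM it was 40, of which 35 were among the 44, without mitochondrial rows 51, of which 37 were, and with medians in place of means 36, of which 28 were. Leaving out each library gave 38 to 50, and 17 members met the rule in all 16 of these sets. Members called between the FS lines numbered 1 against a log2 fold change of 1, 5 in the 6 FS libraries alone, 8 with passage as a covariate and 7 to 18 when each library was left out. Between the EpiSC lines 3 were called against a log2 fold change of 1, and 3 to 8 when each library was left out. The 6 EpiSC libraries alone gave 4 of 35 members tested, with 13.6% of all genes called. In the EpiSC leave-outs the share of all genes called moved too. It was lowest without EpiSC_AFX passage 5 (3.03%) and highest without ES passage 12 (8.75%). The 8 members were called without 5ar1 passage 10, where 7.85% of all genes were. In the FS leave-outs the share was lowest without 5ar1 passage 14 (1.496%) and highest without 5ar1 passage 10 (8.07%). The test against a log2 fold change of 1 sets a stricter threshold, and the other settings change the samples or the model. The cause of these changes in number was not tested. The numbers called over all genes ranged from 128 to 1549 between the FS lines and from 197 to 2276 between the EpiSC lines. Of 485 refits of single called members, 389 kept the call, 96 lost it and 0 changed direction. She could not be fitted in 1 alternative. Between the FS lines, calls were lost without 5ar1 passage 12 or 14 or 5ar3 passage 4 or 5 for Gm14322, Gm14412, Rab3il1, Cbr3, Abcg1, Dlgap3, Gm14124 or Grasp, and also without 5ar1 passage 10 for Dlgap3, and without 5ar3 passage 12 for Abcg1, Dlgap3, Gm14124 and Grasp. The Grasp call was also lost without any one EpiSC_AF library and without ES passage 13, 15 or 20. Between the EpiSC lines, She was lost without EpiSC_AF passage 13 or 14 or EpiSC_AFX passage 8, Lipo3 without these or EpiSC_AFX passage 5, and Abcg1 without any of 10 libraries. No member was called for passage under any alternative, where 0 to 21 of all genes were. No paired analysis was possible because the replicate numbers only name the samples, in accession order. For members at a few counts in EpiSCs depth limits the size of the second step.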
